A study of Mus musculus with 6 samples.

Results

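The cytosolic ribosomal proteins form the protein part of the ribosome, and the transcripts of 84 genes with a ribosomal protein symbol were followed in mouse kidney at the ages labelled 24M and 2M. The 84 genes were chosen by name alone among the 12546 genes listed in both deposited expression tables. A symbol had to begin with Rpl or Rps before a number, or to be Rplp0, Rplp1, Rplp2 or Rpsa; S6 kinase genes, antisense genes and genes with the -ps ending of pseudogenes were left out. The set held 46 genes of large subunit proteins and 31 genes of small subunit proteins, which together are the 77 subunit genes. It also held 6 paralogs of subunit genes, namely Rpl3l, Rpl7l1, Rpl22l1, Rpl36al, Rps27l and Rps27rt. Rps19bp1, a protein that binds the small subunit protein Rps19, matched by name but is not a subunit and is given apart. All 84 are annotated as protein coding, and they lie on 19 chromosomes.

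Whole kidneys of WT mice with no labelled treatment were compared, 24M with 4 libraries and 2M with 2 libraries, to ask how the kidney transcriptome differs in natural aging. The labels name no strain, sex or pooling. Whether each library stems from its own animal is also unstated, and the p-values below then reflect only library-to-library spread, which may be technical. The values are FPKM, fragments scaled to transcript length and to the number of mapped fragments, in one table for 24M_1, 24M_2, 2M_1 and 2M_2 and in another for 24M_3 and 24M_4. Changes with age were tested within the first table, and 24M_3 and 24M_4 were set beside it without a test because the tables were made separately.

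Each ribosome joins a small subunit, which reads the messenger RNA, to a large subunit, which forms the peptide bonds. Ribosomal proteins are made in the cytoplasm, imported into the nucleolus and assembled there with ribosomal RNA, and a surplus of single proteins is degraded. Their messenger RNAs typically start with a run of pyrimidines, the terminal oligopyrimidine (TOP) tract, through which the growth kinase complex mTORC1 controls how strongly they are translated. The values below measure transcripts and not translation.

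The stretch around the annotated start is shown for 8 members described below, with its longest run of C and T in capitals. The sequences are the 30 bases centred on a RefSeq transcription start in GRCm38.p6, read 5′ to 3′ along the gene.
Rpl35 (chr2:39005117-39005146, minus strand): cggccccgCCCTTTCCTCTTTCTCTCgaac
Rpl34 (chr3:130730323-130730352, minus strand): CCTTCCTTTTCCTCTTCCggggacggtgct
Rps10 (chr17:27635230-27635259, minus strand): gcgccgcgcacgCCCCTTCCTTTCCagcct
Rps6 (chr4:86857353-86857382, minus strand): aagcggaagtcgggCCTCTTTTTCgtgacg
Rplp2 (chr7:141447636-141447665, plus strand): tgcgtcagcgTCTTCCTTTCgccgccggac
Rps15 (chr10:80292416-80292445, plus strand): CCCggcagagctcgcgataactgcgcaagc
Rpl10 (chrX:74270801-74270830, plus strand): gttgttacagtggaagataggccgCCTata
Rpl26 (chr11:68901551-68901580, plus strand): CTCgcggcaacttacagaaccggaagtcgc
The first 5 hold long runs, and Rps15, Rpl10 and Rpl26 are shown as members without one at the annotated start. A run of 8 or more C or T on the gene's strand lay in this window for 28 of the 76 RefSeq starts of 64 members, or 36.8%. The same held for 12.3% of 11489 starts of all tested genes. The letters CCGGAAG, on either strand within 250 bases before to 50 after the start, were found at 26 of the 76 starts (34.2%), at 17.6% of the starts of tested genes and at 8.86% of all 32851 starts. These are matches of letters, and a missing match says only that the letters are not in that window. The first 15 bases of each printed window lie before the start. Most of the Rpl34 run lies there, and some counted runs, such as that of Rpl31, lie there wholly. A run before the start is not part of a messenger RNA that begins at that start.

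Summed over the 84 genes, ribosomal protein transcripts came to 10680 FPKM in 24M_1 and 11202 FPKM in 24M_2, against 10617 FPKM in 2M_1 and 11063 FPKM in 2M_2. The ages interleave, and the libraries numbered 2 were the higher ones at both ages. As a share of the summed FPKM of all 12546 genes, this was 3.68% and 3.82% in 24M_1 and 24M_2, against 3.71% and 3.75% in 2M_1 and 2M_2. The log2 ratio of the 24M mean sum over the 2M mean sum was 0.013, less than the 0.045 by which replicate libraries of an age spread (SD). The large subunit genes summed to 6708 and 7032 FPKM in 24M_1 and 24M_2, against 6639 and 6986 FPKM in 2M_1 and 2M_2. The small subunit genes summed to 3478 and 3693 FPKM in 24M_1 and 24M_2, against 3519 and 3595 FPKM in 2M_1 and 2M_2, so that 24M_1 was the lowest and 24M_2 the highest of the 4. In whole tissue, fewer cells of a type and less RNA per cell cannot be told apart.

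**Figure D1:**
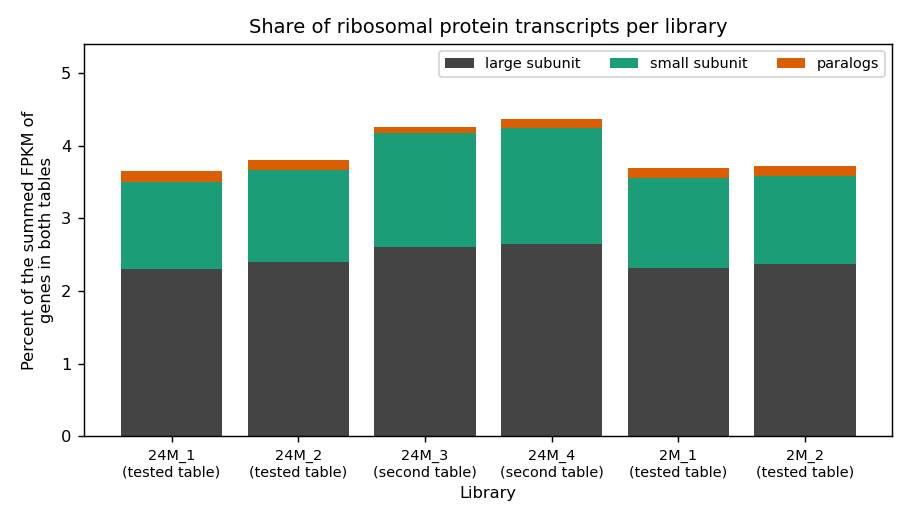
Share of ribosomal protein transcripts in each library, as percent of the summed FPKM of the 12546 genes in both tables (vertical axis), stacked by large subunit genes, small subunit genes and paralogs; each bar is 1 library. The 24M_1 and 24M_2 bars stand beside those of 2M_1 and 2M_2 at 3.68% to 3.82% with Rps19bp1 included, and 24M_3 and 24M_4 of the second table reach 4.26% and 4.37%.

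Gene by gene, no ribosomal protein transcript rose or fell with age past the threshold. With limma on log2(FPKM + 1), and Benjamini-Hochberg FDR below 0.05 over the 11437 genes tested, 0 of the 84 were higher in 24M, where 0.761% of all tested genes were. Likewise 0 of the 84 were lower in 24M, where 0.813% of all tested genes were. All 84 passed the filter of at least 1 FPKM in at least 2 of the 4 libraries. At an unadjusted p below 0.05 in either direction 1 of the 84 remained, Rpl29, where 16.9% of all tested genes did. limma without the intensity trend and robust variance also called 0 of the 84.

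The log2 changes of the members lay close to 0. Their median was 0.0029, against -0.024 over all genes tested, with 44 above 0 and 40 below; after quantile normalization the members' median was -0.021 and that of all genes -0.0024. The median was 0.0010 for the large subunit genes, 0.0015 for the small subunit genes and 0.057 for the 6 paralogs. The lower and upper quartiles were -0.037 and 0.057 for the members and -0.14 and 0.088 for all genes. All members lay between -0.21 and 0.21 on this scale. None was beyond 0.25 in either direction, where 21.5% of all tested genes were, and 15.3% of those with a mean of at least 10 FPKM.

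The 95% confidence interval of the log2 change stayed within -0.5 to 0.5 for 82 of the 84 members. The exceptions were Rpl26 and Rps20. Over all tested genes 70.6% had such an interval, and 82.9% of those with a mean of at least 10 FPKM. The median standard error was 0.068 for the members and 0.10 for all genes.

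**Figure D2:**
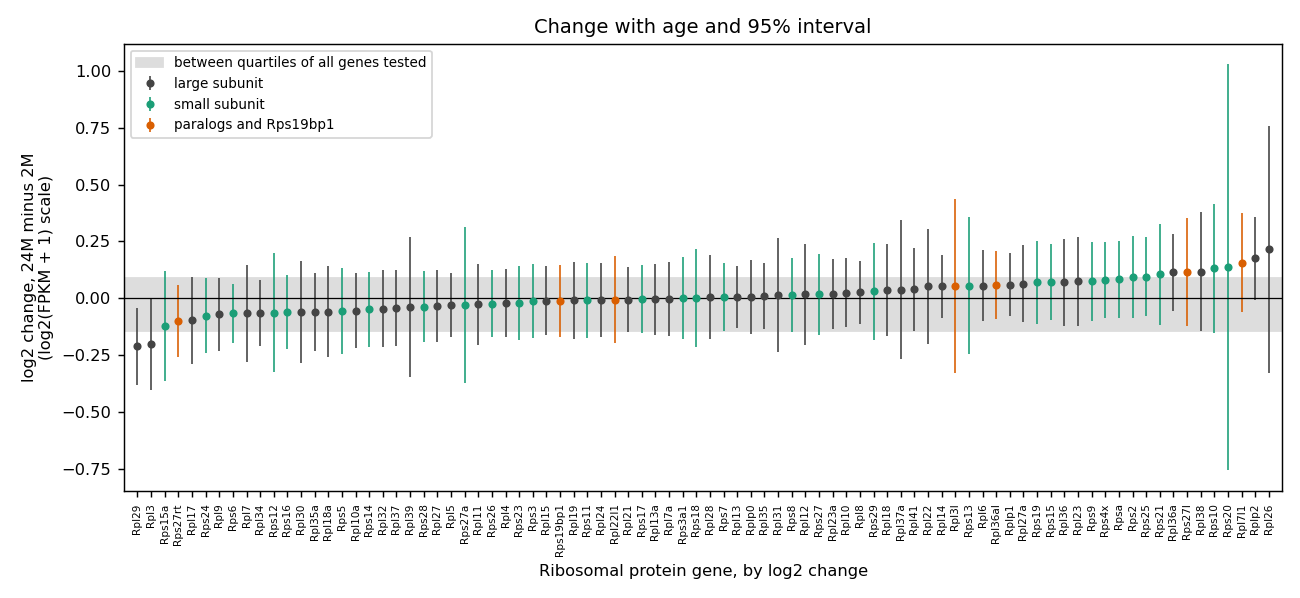
Log2 change with age of each of the 84 genes, 24M_1 and 24M_2 minus 2M_1 and 2M_2 on the log2(FPKM + 1) scale (vertical axis), ordered by size along the horizontal axis; points are limma estimates, bars their 95% confidence intervals, and the grey band the range between the quartiles of all tested genes (-0.14 to 0.088). The points run from -0.21 for Rpl29 to 0.21 for Rpl26, and the bars of Rps20 and Rpl26 are the widest.

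Rpl29, a large subunit protein, had the most negative log2 change. It stood at 62.9 and 64.0 FPKM in 24M_1 and 24M_2, against 70.5 and 76.8 FPKM in 2M_1 and 2M_2. Both 24M libraries lay below both 2M libraries. The log2 change was -0.21 (SE 0.068, 95% interval -0.38 to -0.041), with an adjusted p of 0.223 by limma, which missed the threshold. In the second table Rpl29 stood at 92.3 and 97.03 FPKM in 24M_3 and 24M_4, above both 2M libraries.

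Rpl3, a large subunit protein close to the peptidyl transferase centre, came next. It stood at 136 and 141 FPKM in 24M_1 and 24M_2, against 149 and 171 FPKM in 2M_1 and 2M_2, with no overlap between the ages. Its log2 change was -0.20 (SE 0.081), with an adjusted p of 0.297 by limma. Without 2M_1 the change was -0.30, and without 2M_2 it was -0.10. Its paralog Rpl3l, known from striated muscle, was the lowest member, at 2.78 and 3.53 FPKM in 24M_1 and 24M_2, against 3.43 and 2.58 FPKM in 2M_1 and 2M_2.

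At the other end stood Rpl26, which lies near the exit of the peptide tunnel. It was at 227 and 329 FPKM in 24M_1 and 24M_2, against 228 and 243 FPKM in 2M_1 and 2M_2. Only 24M_2 was high, and 24M_1 lay below both 2M libraries. The log2 change of 0.21 had a 95% interval from -0.33 to 0.76 (adjusted p = 0.645, limma). Rps20, a protein of the small subunit head, spread most between libraries, at 19.3 and 31.2 FPKM in 24M_1 and 24M_2, against 18.5 and 26.8 FPKM in 2M_1 and 2M_2. Its coefficient of variation over the 4 libraries was 25.6%, and the libraries numbered 2 were high at both ages.

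The stalk of the large subunit, which recruits the elongation factors, is built from Rplp0, Rplp1 and Rplp2. Rplp2 stood at 97.7 and 110 FPKM in 24M_1 and 24M_2, against 91.4 and 91.6 FPKM in 2M_1 and 2M_2. Both 24M libraries were above both 2M libraries, and the log2 change was 0.18 (SE 0.074, adjusted p = 0.314 by limma). Without 24M_1 it was 0.26, and without 24M_2 it was 0.094. Rplp1 was the most abundant member, at 556 and 578 FPKM in 24M_1 and 24M_2, against 546 and 541 FPKM in 2M_1 and 2M_2. Its log2 change was 0.059 (adjusted p = 0.642, limma), and Rplp0 was at 235 and 228 FPKM in 24M_1 and 24M_2, against 221 and 240 FPKM in 2M_1 and 2M_2.

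Rpl5 and Rpl11 join the 5S rRNA in a particle that can also bind and restrain Mdm2, the ubiquitin ligase of p53. Rpl5 was at 104 and 102 FPKM in 24M_1 and 24M_2, against 104 and 106 FPKM in 2M_1 and 2M_2. Rpl11 was at 61.1 and 66.0 FPKM in 24M_1 and 24M_2, against 62.6 and 66.9 FPKM in 2M_1 and 2M_2. Their log2 changes were -0.030 and -0.027 (adjusted p = 0.837 and 0.891, limma), and the ages overlapped for both.

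Rps6, the small subunit protein phosphorylated by the S6 kinases, stood at 322 and 324 FPKM in 24M_1 and 24M_2, against 339 and 337 FPKM in 2M_1 and 2M_2. The ages did not overlap, but the log2 change was only -0.067, with a 95% interval from -0.20 to 0.064 and an adjusted p of 0.580 by limma. Rps15a had the most negative log2 change among small subunit genes, at 10.5 and 12.2 FPKM in 24M_1 and 24M_2, against 12.6 and 12.3 FPKM in 2M_1 and 2M_2. That change was -0.12 (adjusted p = 0.582, limma).

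Among the 7 genes of proteins lining or surrounding the exit tunnel (Rpl4, Rpl17, Rpl22, Rpl23a, Rpl26, Rpl35 and Rpl39), log2 changes ran from -0.097 for Rpl17 to 0.21 for Rpl26, with a median of 0.010. Among the 6 of the small subunit head and decoding region (Rps2, Rps3, Rps15, Rps20, Rps23 and Rpsa), they ran from -0.021 for Rps23 to 0.14 for Rps20, with a median of 0.077. The 9 members known in humans as genes mutated in Diamond-Blackfan anaemia had changes from -0.076 for Rps24 to 0.13 for Rps10, with a median of -0.023. None of these members passed the threshold or had an unadjusted p below 0.05 in limma.

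The paralogs differed widely in level from their partners. Rpl22l1 stood at 10.9 and 10.7 FPKM in 24M_1 and 24M_2, against 10.7 and 11.02 FPKM in 2M_1 and 2M_2. Its partner Rpl22 was at 52.5 and 63.6 FPKM in 24M_1 and 24M_2, against 54.7 and 56.7 FPKM in 2M_1 and 2M_2. Rpl36al, at 158 and 168 FPKM in 24M_1 and 24M_2 and 157 and 156 FPKM in 2M_1 and 2M_2, lay above Rpl36a, at 40.9 and 41.6 FPKM in 24M_1 and 24M_2 and 36.7 and 39.4 FPKM in 2M_1 and 2M_2. Rpl7l1, a protein of ribosome assembly, had the largest change among paralogs, at 42.6 and 38.1 FPKM in 24M_1 and 24M_2, against 34.3 and 37.9 FPKM in 2M_1 and 2M_2. The log2 change was 0.16, with a 95% interval from -0.062 to 0.37 and an adjusted p of 0.436 by limma.

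Levels differed far more between genes than between ages. The 77 subunit genes spanned a 46.7-fold range of mean FPKM over the 4 libraries of the first table, with Rplp1 at 555 and Rps15a at 11.9. After Rplp1 the highest were Rpl8, Rpl19, Rpl36 and Rpl17, and above Rps15a the lowest subunit genes were Rpl18, Rps19 and Rps20. Genes with longer annotated exons tended to lower mean levels, with Pearson's r of -0.55 across the 84 genes on log2 scales. These are 84 points from the same libraries, and FPKM itself divides by a transcript length, which the sources used here do not give.

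**Figure D3:**
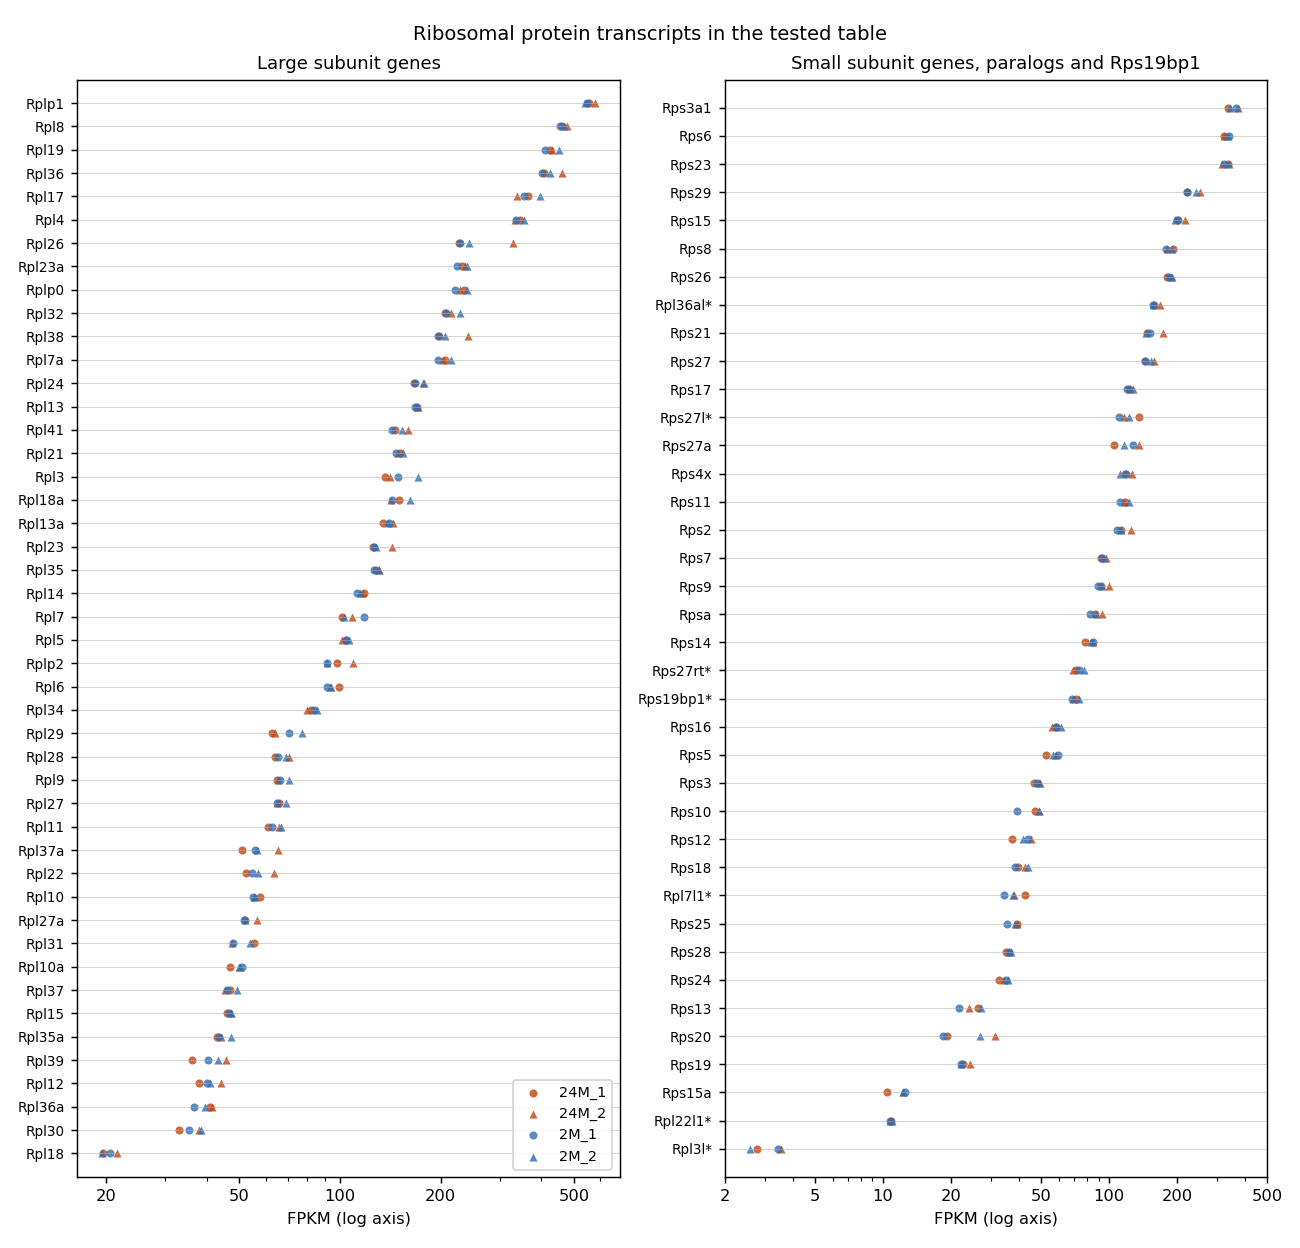
FPKM (horizontal log axis) of every gene in the 4 libraries of the first table, in order of mean level, with large subunit genes on the left and small subunit genes on the right; an asterisk marks paralogs and Rps19bp1. Orange marks are 24M_1 and 24M_2, and blue marks are 2M_1 and 2M_2. The 4 marks of a gene lie close together beside the range from Rplp1 at 555 to Rpl3l at 3.08 FPKM. Set off to the right are the 24M_2 mark of Rpl26 and both the 24M_2 and 2M_2 marks of Rps20.

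Few members separated the libraries by age. Both 24M_1 and 24M_2 lay above both 2M libraries for 9 of the 84, where 20.8% of all tested genes did, and below both for 9 of the 84, where 29.6% did. The 9 above were Rplp1, Rplp2, Rpl14, Rpl27a, Rpl36a, Rps19, Rps25, Rpl36al and Rpl7l1. The 9 below were Rpl3, Rpl9, Rpl29, Rpl34, Rps6, Rps15a, Rps24, Rps28 and Rps27rt. For 66 the ages overlapped.

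Within an age, most members moved to the same side. 24M_2 was above 24M_1 for 59 of the 84 and 2M_2 above 2M_1 for 67 of the 84, with a median ratio of 1.05 in each case. Over all tested genes these median ratios were 0.9999 and 0.977. Pearson's r of log2(FPKM + 1) across the 84 genes was 0.9951 to 0.9974 for pairs across ages, 0.9939 between 24M_1 and 24M_2 and 0.9968 between 2M_1 and 2M_2. The points share their libraries.

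In the second table the profile of the same genes was different. The sum was 12853 FPKM in 24M_3 and 14627 FPKM in 24M_4, which was 4.26% and 4.37% of the summed FPKM, against 10617 and 11063 FPKM, or 3.71% and 3.75%, in 2M_1 and 2M_2. Both libraries lay above both 2M libraries for 61 of the 84, where 32.1% of all tested genes did, and below both for 15, where 40.5% did. The median ratio of the 24M_3 and 24M_4 mean over the 2M mean was 1.46 for the 84 genes and 0.954 for all genes. It was 1.66 for small subunit genes, 1.40 for large subunit genes and 0.859 for paralogs. These comparisons share the 2M libraries with the test above, levels were not tested across tables, and the way the tables were made cannot be told apart from the libraries in them.

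The members did not shift together in the second table. Pearson's r across the 84 genes was 0.9953 between 24M_3 and 24M_4, but 0.8366 to 0.8518 between libraries of different tables. That second range also holds for 24M_1 and 24M_2, which carry the same age label as 24M_3 and 24M_4. Over all 12546 genes, r between tables was 0.8936 to 0.9387.

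**Figure D4:**
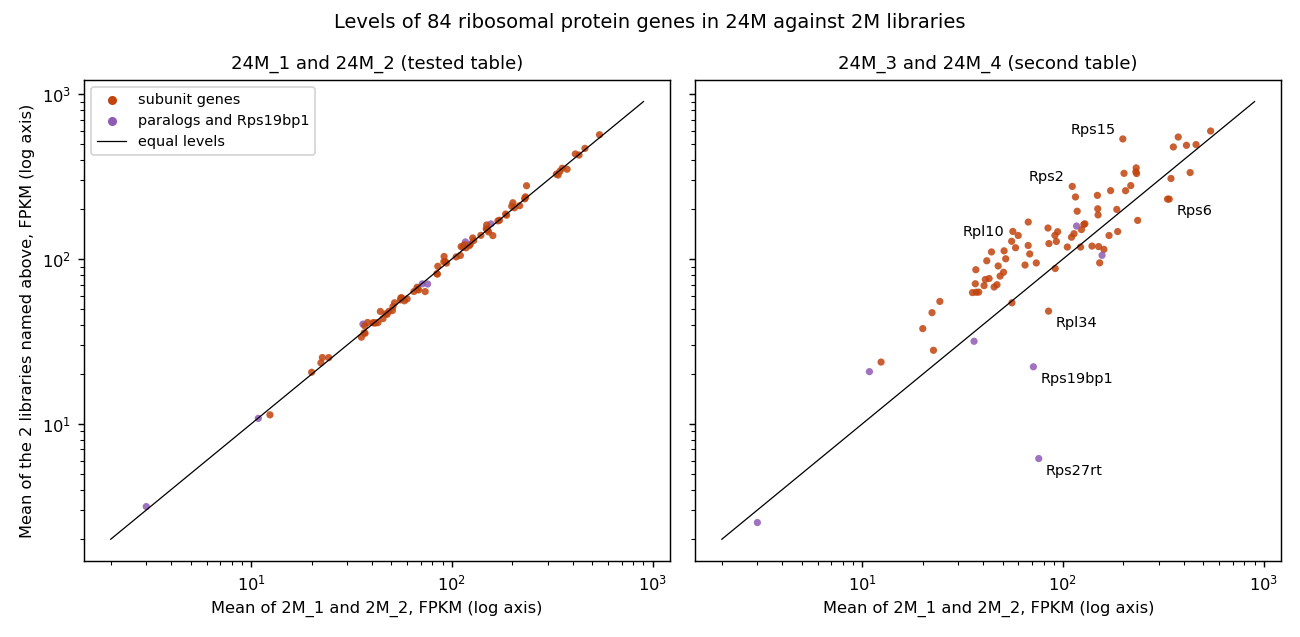
Mean FPKM of each of the 84 genes in 24M (vertical log axis) against its mean in 2M_1 and 2M_2 (horizontal log axis), for 24M_1 and 24M_2 on the left and 24M_3 and 24M_4 on the right; the line marks equal levels, and purple points are paralogs and Rps19bp1. On the left all points lie near the line, and on the right 61 genes lie above both 2M libraries while Rps27rt and Rps19bp1 fall far below the line.

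Rps15, which sits at the decoding region of the small subunit, had the largest ratio. It was at 473 and 596 FPKM in 24M_3 and 24M_4, against 202 and 195 FPKM in 2M_1 and 2M_2, a 2.69-fold difference. In the first table its 24M libraries stood at 200 and 218 FPKM. The next members by ratio, chosen after their values were seen, were Rpl37a at 2.61-fold, Rps10 at 2.51-fold, Rpl28 at 2.49-fold and Rps2 at 2.48-fold.

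Subunit genes that lay below both 2M libraries included Rps6, at 223 and 239 FPKM in 24M_3 and 24M_4, against 339 and 337 FPKM in 2M_1 and 2M_2. Rpl34, also named after its values were seen, was the lowest subunit gene by ratio, at 45.7 and 50.9 FPKM in 24M_3 and 24M_4, against 83.9 and 85.6 FPKM in 2M_1 and 2M_2. Rps6 and Rpl34 hold pyrimidine runs in the window printed above, that of Rpl34 mostly before the start. So does Rps10, which lay on the other side. Rps19bp1, the member that is no subunit, stood at 19.3 and 25.1 FPKM in 24M_3 and 24M_4, against 69.0 and 73.4 FPKM in 2M_1 and 2M_2. In the first table it was at 71.6 and 69.7 FPKM in 24M_1 and 24M_2.

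The member with the lowest ratio in the second table was Rps27rt, a retrogene copy of Rps27. It stood at 4.99 and 7.35 FPKM in 24M_3 and 24M_4, against 73.7 and 77.8 FPKM in 2M_1 and 2M_2, and at 71.8 and 69.3 FPKM in 24M_1 and 24M_2. Rps27 itself stood at 172 and 198 FPKM in 24M_3 and 24M_4, against 145 and 154 FPKM in 2M_1 and 2M_2. The coding sequences of Rps27 (chromosome 3) and Rps27rt (chromosome 9) are identical over all 252 bases in the GENCODE M21 annotation of GRCm38, whereas that of the paralog Rps27l (chromosome 9) differs from them at 60 of these bases, 76.2% identity. They are printed here because a read from the shared sequence fits both Rps27 and Rps27rt, while capitals mark the bases that set Rps27l apart.
Rps27 and Rps27rt: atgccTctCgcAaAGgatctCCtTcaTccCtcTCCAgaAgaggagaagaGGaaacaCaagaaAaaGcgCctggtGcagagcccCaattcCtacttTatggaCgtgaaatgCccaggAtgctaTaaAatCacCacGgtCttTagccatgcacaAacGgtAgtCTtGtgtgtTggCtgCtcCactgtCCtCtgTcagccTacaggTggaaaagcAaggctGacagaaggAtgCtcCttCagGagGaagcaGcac
Rps27l: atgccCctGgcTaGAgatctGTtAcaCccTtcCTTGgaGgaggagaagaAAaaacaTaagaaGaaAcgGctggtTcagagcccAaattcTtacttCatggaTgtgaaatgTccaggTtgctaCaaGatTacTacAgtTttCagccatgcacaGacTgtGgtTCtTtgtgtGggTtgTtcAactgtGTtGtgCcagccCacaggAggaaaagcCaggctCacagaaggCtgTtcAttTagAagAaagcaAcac
Rps27l, which differs at the capital letters, stood at 121 and 196 FPKM in 24M_3 and 24M_4, against 111 and 122 FPKM in 2M_1 and 2M_2, and at 137 and 117 FPKM in 24M_1 and 24M_2. The sum of Rps27 and Rps27rt was 0.849 times as high in 24M_3 and 24M_4 as in 2M, on means of 191 and 225 FPKM.

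Such near copies were then listed for all members, counting a gene in both tables whose transcript matched at least 90% of a member's coding sequence at 97% identity or more. There were 17 pairs, 5 of them with identical aligned sequence, over 16 members: Rpl7a, Rpl9, Rpl10, Rpl11, Rpl13a, Rpl21, Rpl27, Rpl29, Rpl35, Rpl36a, Rplp1, Rplp2, Rps7, Rps12, Rps18 and Rps27. The listed copy of Rpl13a, Gm45713, overlaps it on chromosome 7. Some listed copies are much longer than the matching stretch. BC004004 has 19180 exonic bases, with 480 aligned to Rpl21, and Wdr89 has 3192, with 345 aligned to Rplp2. The counts below include them. In 24M_3 and 24M_4, 12 of the 17 copies lay below both 2M libraries, where 40.5% of all tested genes did. Above both lay 3, where 32.1% of all tested genes did, and 2 overlapped. Of the members in these pairs, against the same shares of all tested genes, 13 lay above, 2 below and 1 overlapped. Rps27rt and Rps27 were taken as a copy and its member. The median ratio over 2M was 0.432 for the copies and 1.35 for their members. It was 1.46 for the 67 members without a near copy among the genes in both tables. Genes listed in neither table were not searched, so sequence shared with such genes is unknown for all members.

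Rpl10, an X-linked large subunit gene, and its copy Rpl10-ps3 on chromosome 9 have identical coding sequence. Rpl10-ps3 stood at 30.7 and 34.8 FPKM in 24M_3 and 24M_4, against 99.5 and 97.2 FPKM in 2M_1 and 2M_2. Rpl10 stood at 136 and 120 FPKM in 24M_3 and 24M_4, against 55.1 and 55.9 FPKM in 2M_1 and 2M_2. The order of the pair was thus opposite in the 2 tables, and the sum of both was 1.05 times the 2M sum. Over the 17 pairs this ratio of sums ran from 0.849 for Rps27 to 1.66 for Rps18, with 1.57 for Rpl27 and 1.58 for Rps12. In the first table Rpl10-ps3 was at 99.9 and 104 FPKM in 24M_1 and 24M_2, and Rpl10 at 57.5 and 55.4 FPKM.

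Rpl9 and its copy Rpl9-ps6 (chromosome 19) differ at 1 coding base, G266A, counted from 1 at the first coding base with the base of Rpl9 first. Coding bases 236 to 295 of both are printed with that base in capitals, to show how little separates the pair.
Rpl9: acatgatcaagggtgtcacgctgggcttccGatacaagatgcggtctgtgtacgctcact
Rpl9-ps6: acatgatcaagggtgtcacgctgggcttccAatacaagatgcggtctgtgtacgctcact
Rpl9-ps6 stood at 2.89 and 3.19 FPKM in 24M_3 and 24M_4, against 18.3 and 18.2 FPKM in 2M_1 and 2M_2, and at 18.9 and 20.4 FPKM in 24M_1 and 24M_2. Rpl9 stood at 102 and 113 FPKM in 24M_3 and 24M_4, against 66.0 and 70.6 FPKM in 2M_1 and 2M_2, and the sum of the pair was 1.28 times the 2M sum. Not all pairs followed this order: Gm2000, a copy of Rpl35, stood at 39.4 and 57.1 FPKM in 24M_3 and 24M_4, against 25.4 and 30.7 FPKM in 2M_1 and 2M_2, on the same side as Rpl35. In the first table limma called 0 of the 16 tested copies, where 0.761% of all tested genes rose and 0.813% fell. Against 16.9% of all tested genes, 1 of these copies had an unadjusted p below 0.05 in limma. That was Rpl27-ps3, at 10.2 and 10.1 FPKM in 24M_1 and 24M_2, against 12.9 and 13.1 FPKM in 2M_1 and 2M_2 (log2 change -0.33, adjusted p = 0.125, limma). How reads were assigned between near-identical sequences is not given in the labels or headers, its part in the difference between tables was not tested, and the values of these 16 members are uncertain for that reason.

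**Figure D5:**
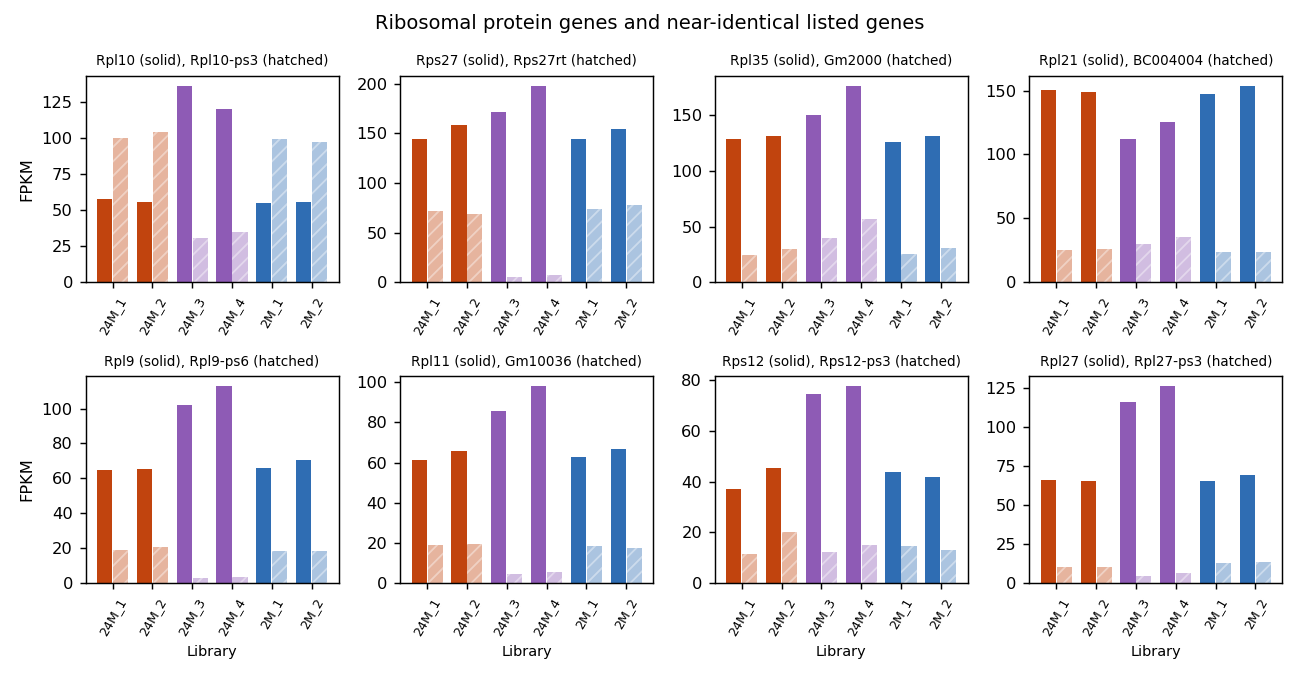
FPKM (vertical axis, from 0) in each of the 6 libraries for 8 members and for a listed gene holding a near-identical stretch of each. Solid bars are the members and hatched bars the listed genes. Orange is 24M_1 and 24M_2, purple 24M_3 and 24M_4 of the second table, and blue 2M_1 and 2M_2. Within the first table the bars of the ages stand close, except that Rpl27-ps3 is lower in 24M and Rps12-ps3 is high in 24M_2 alone. In the second table Rpl10-ps3, Rps27rt, Rpl9-ps6, Gm10036 and Rpl27-ps3 are low while Gm2000 and BC004004 are not.

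Other genes of the translation machinery were counted in the first table against the same background. In it 16.9% of all tested genes had an unadjusted p below 0.05 in limma and 21.5% a log2 change beyond 0.25. At FDR below 0.05, 0.761% of all tested genes rose and 0.813% fell. At that share, lists of the sizes below would hold few calls or none. Of 43 tested initiation factors 0 rose and 1 fell in limma, and their median log2 change was 0.0059. At an unadjusted p below 0.05, 6 were higher and 1 was lower, and 4 of the 43 lay beyond 0.25. The 1 that fell was Eif3j2, a paralog of the initiation factor gene Eif3j1 with which it may share reads. It was listed at 0 in 24M_1 and 24M_2, against 11.4 and 9.55 FPKM in 2M_1 and 2M_2 (adjusted p = 0.0018, limma). Among all 43 factors the lowest ratio of the 24M_3 and 24M_4 mean over the 2M mean was 0.212. Eif3j2 was thus not at 0 in both 24M_3 and 24M_4. Eif3j1 was at 20.8 and 22.2 FPKM in 24M_1 and 24M_2, against 17.9 and 18.3 FPKM in 2M_1 and 2M_2 (adjusted p = 0.203, limma). Eif1, which guards start codon choice, was at 86.7 and 89.7 FPKM in 24M_1 and 24M_2, against 68.5 and 74.4 FPKM in 2M_1 and 2M_2 (log2 change 0.30, adjusted p = 0.120, limma).

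Of 11 tested elongation and termination factors 0 rose and 0 fell, with a median of -0.018, and 2 had an unadjusted p below 0.05 in limma, near the share of all genes. Those were Eif5a, at a log2 change of 0.22, and Gspt1, at -0.20. Of 68 tested ribosome biogenesis factors 0 rose and 0 fell, with a median of 0.014 and 6 at an unadjusted p below 0.05, where 16.9% of all genes were, and 8 of the 68 lay beyond 0.25. The smallest p belonged to Nhp2, Nop16 and Tsr2, at log2 changes of -0.35, 0.26 and -0.37. Of 13 tested RNA polymerase I genes, which make the large ribosomal RNA precursor, 0 rose and 0 fell. Their median was -0.011, and 2 had an unadjusted p below 0.05, Rrn3 at 0.34 and Taf1b at -0.48.

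Of 24 tested genes of the mTORC1, S6 kinase and TOP pathway 0 rose and 0 fell, with a median of -0.022 and 4 at an unadjusted p below 0.05 in limma, where 16.9% of all genes were. Of these 4, 1 was higher and 3 were lower in 24M. Log2 changes ran from -0.56 to 0.85 over the 24. Changes beyond 0.25 were found for 5 of the 24, near the 21.5% of all genes. Mtor, the kinase of the complex, stood at 25.7 and 24.1 FPKM in 24M_1 and 24M_2, against 31.1 and 32.1 FPKM in 2M_1 and 2M_2. The ages did not overlap, and the log2 change was -0.33 (SE 0.071, adjusted p = 0.105 by limma), which missed the threshold. In the second table Mtor was at 12.8 and 13.9 FPKM in 24M_3 and 24M_4. Rps27a, a small subunit protein made as a fusion to ubiquitin, stood at 105 and 136 FPKM in 24M_1 and 24M_2, against 127 and 117 FPKM in 2M_1 and 2M_2, with overlapping ages.

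The 78 mitochondrial ribosomal protein genes belong to the separate ribosome of the mitochondrion. In the first table they had a median log2 change of 0.012. Where 0.761% of all tested genes were called higher and 0.813% lower, 0 of the 78 were. In 24M_3 and 24M_4 their median ratio over 2M was 0.897, where the 84 cytosolic genes had 1.46. 24M_4 was above 24M_3 for 78 of the 84 cytosolic genes and for 92.3% of the mitochondrial set. The same held for 37.5% of all tested genes and for 54.1% of those with a mean of at least 10 FPKM. The 14 proteasome core genes had a median log2 change of 0.020 with 0 called, and a median ratio of 1.18 in the second table.

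Across the series, FPKM sums over the shared genes ran from 286095 to 334583 per library, and the depth in reads is unknown. All 13 kidney markers, from proximal tubule to podocyte genes, were tested. In limma 1 rose (Slc12a3, adjusted p = 0.0458) and 0 fell, where 0.761% and 0.813% of all tested genes did. An unadjusted p below 0.05 in limma was found for 3 of the 13, where 16.9% of all tested genes had one. Summed leukocyte markers stood at 82.7 and 78.5 FPKM in 24M_1 and 24M_2 and at 984 and 186 FPKM in 24M_3 and 24M_4, against 45.8 and 60.7 FPKM in 2M_1 and 2M_2. Summed urothelium markers stood at 0.974 and 33.1 FPKM in 24M_1 and 24M_2 and at 5.88 and 4.25 FPKM in 24M_3 and 24M_4, against 71.8 and 53.7 FPKM in 2M_1 and 2M_2, with 4 of 7 listed at 0 in 24M_1 and 3 of 7 in each of 24M_3 and 24M_4. Summed red blood cell markers stood at 28.8 and 53.5 FPKM in 24M_1 and 24M_2 and at 206 and 173 FPKM in 24M_3 and 24M_4, against 204 and 161 FPKM in 2M_1 and 2M_2. The 5 adipocyte markers in both tables summed to 17.8 and 16.8 FPKM in 24M_1 and 24M_2, against 35.3 and 43.3 FPKM in 2M_1 and 2M_2. In 24M_3 and 24M_4 they summed to 8.06 and 17.7 FPKM. Their median was 0.11 and 0 FPKM in 24M_1 and 24M_2, against 4.2 and 3.4 FPKM in 2M_1 and 2M_2. In 24M_3 and 24M_4 the median was 0.039 and 0.66 FPKM. Of 6 tested adipocyte markers limma called 5 lower, where 0.813% of all tested genes were, with a median log2 change of -1.64. The part of these cell types in the ribosomal protein values was not tested.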

How the data were processed

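RNA-seq of kidney was deposited as FPKM per gene in 2 tables, per the file headers, one with 2M_1, 2M_2, 24M_1 and 24M_2 (12666 genes) and one with 24M_3 and 24M_4 (13606 genes). The submitters' processing notes name DESeq2 1.20.0, HISAT2 2.0.5, the mm10 build and featureCounts 1.5.0-p3 without a role for each. Which annotation was used and how FPKM were computed is not given in the sources used here. FPKM values of the authors are not counts, and low values showed no steps of single reads: among 1243 low genes the most frequent ratio between the 2M libraries was shared by 0.322%. Depth is therefore unknown, and no interval from read counts is given.

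Gene symbols came from the Ensembl IDs with the version ignored (18 and 27 IDs had none), and coordinates, exonic lengths and coding sequences from GENCODE M21 on GRCm38, the assembly of mm10. Promoter windows came from RefSeq on GRCm38.p6, in which 64 of the 84 genes matched. Sample titles gave the group and replicate number of each library. log2(FPKM + 1), with a pseudocount of 1, was modelled by age alone in limma 3.58.1 (R 4.3.3), with trend and robust options in the empirical Bayes step. It used genes with at least 1 FPKM in at least 2 of the 4 libraries of the first table, and Benjamini-Hochberg FDR below 0.05 over all 11437 of them. On this scale changes of low genes come out too small, and there were 2 residual degrees of freedom. Near copies were found with BLAST 2.17.0.

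The members and the gene lists were chosen with earlier results of these data known. Named members are the 5 largest changes in each direction, the 5 highest and 5 lowest by mean, and members of the lists for the stalk, the 5S particle, S6, the exit tunnel, the small subunit head, the ubiquitin-fused genes, and paralogs with their partners; from other translation lists, genes past the threshold and up to 3 with the smallest p. Other members named for the second table were chosen after their values were seen. 24M_3 and 24M_4 entered no test. Alternatives changed the pseudocount to 0.1, the filter to none or 5 FPKM, the scaling between libraries, the variance model, the replicate block and the libraries. A further alternative kept only the 77 subunit genes of the main fit.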

Additional observations from a re-analysis of the deposited data

How the results depend on the processing

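Of the 13 alternatives, those that kept all 4 libraries called 0 ribosomal protein genes higher and 0 lower by limma. The smallest adjusted p of a member over them was 0.181, after quantile normalization. The alternative that kept only the 77 subunit genes reused the main fit, so its result was fixed in advance. Leaving out a library in turn gave median log2 changes from -0.029 to 0.035 for all members, -0.035 to 0.033 for large subunit genes and -0.033 to 0.052 for small subunit genes. The value of 0.052, without 24M_1, was the only one of these medians to move by more than the spread between replicates (0.050), against 0.0015 with all 4 libraries; the cause was not tested. The log2 ratio of summed FPKM ran from -0.021 to 0.047. For single named members 7 of 491 log2 changes moved by more than the gene's own spread between replicates, under median-ratio scaling or quantile normalization. The other 484 did not, but many of them could not. Leaving out a library moves a gene's change by at most that spread, and the filter, variance model and replicate block leave it unchanged. None changed direction past the threshold. Scalings put the median of all genes between -0.033 and -0.00041. Deviations of samples with the same number were not correlated across genes (r = -0.059 over 11437 genes). This value does not decide whether the numbers pair them, because a shift shared by all genes does not enter it. With the replicate block 0 members were called and 2 had an unadjusted p below 0.05 in limma. The count over all genes was then 43, where 180 were called without it. That count over all genes was 108 without trend and robust variance, 92 without 24M_1, 126 without 24M_2, and 0 without 2M_1 or 2M_2, where 1215 and 1452 had an unadjusted p below 0.05; a lone library was there assumed to vary like the other age. With 2 libraries per age and unknown depth, changes smaller than the intervals given were not detectable.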

Other observations

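Rps6ka3, which encodes a kinase of the ribosomal S6 kinase family and is no ribosomal protein gene, was singled out after its values were seen. It stood at 4.35 and 4.16 FPKM in 24M_1 and 24M_2, against 9.66 and 8.46 FPKM in 2M_1 and 2M_2, with no overlap between the ages. Its log2 change was -0.93 (SE 0.099), with an adjusted p of 0.0228 by limma. In the second table it was at 2.41 and 5.31 FPKM in 24M_3 and 24M_4, also below both 2M libraries. Rps6kb1 and Rps6kb2, the kinases that phosphorylate Rps6 downstream of mTORC1, had log2 changes of -0.034 and 0.19 (adjusted p = 0.884 and 0.414, limma).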
